A study of Mus musculus with 6 samples.

Results

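Integrins are the receptors through which cells hold their matrix, and the 35 genes described here encode 12 alpha and 5 beta subunits together with the talins, kinases, adaptors and collagen receptor kinases that work beside them. They were taken by name from a list and found by identifier in a table of 57010 gene identifiers, and all 35 passed the filter on low counts. The RNA was that of fibroblasts from mouse ear after 3 days on a substrate, with 500000 cells per sample. The control group was grown on glass, and the other groups on polyacrylamide hydrogels, soft water-filled sheets whose stiffness is set by their composition, of 1 kPa or 20 kPa. Each group had 2 libraries, 6 in all, and the labels do not tie the libraries of a group to separate animals or cultures. Every p-value is therefore measured against the spread of these libraries alone, part or all of which may be technical. The sources used here give no strain, genotype, age, passage or protein coating of the substrates, and no reprogramming factor is named for these samples although the series title speaks of reprogramming.

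An integrin is a pair of 1 alpha and 1 beta subunit that spans the membrane. The alpha subunit largely sets the ligand: one class binds collagens, another binds laminins of the basement membrane, and a further class reads the arginine-glycine-aspartate (RGD) sequence in fibronectin, vitronectin and similar proteins. Inside the cell, talin and kindlin bind the beta tail and tie it to actin, the ILK-PINCH-parvin complex and tensins add further links, and FAK and SRC phosphorylate adaptors such as paxillin and p130Cas. In dermal fibroblasts these adhesions carry the pull of the cytoskeleton on the matrix, and many of them enlarge on rigid substrates.

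The bases just upstream of the transcription start are printed for 4 abundant integrin genes: one alpha subunit for each main ligand class, and Itgb1, the beta subunit that all 3 can pair with. Sequences are from RefSeq (GRCm38.p6), run 5′ to 3′ on the gene's strand and end before the start; capitals mark GGGCGG, the core letters that SP1 binds, or GGAATG, those that TEAD factors bind, on either strand. Itga11 lies on the plus strand at chr9:62677605-62677825, Itga3 on the minus strand at chr11:95076802-95076964, Itga5 on the minus strand at chr15:103366792-103367041 and Itgb1 on the plus strand at chr8:128685404-128685653.
Itga11: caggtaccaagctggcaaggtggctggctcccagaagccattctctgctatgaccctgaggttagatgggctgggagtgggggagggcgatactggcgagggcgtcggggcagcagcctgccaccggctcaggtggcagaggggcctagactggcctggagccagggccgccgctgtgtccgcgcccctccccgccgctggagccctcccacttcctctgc
Itga3: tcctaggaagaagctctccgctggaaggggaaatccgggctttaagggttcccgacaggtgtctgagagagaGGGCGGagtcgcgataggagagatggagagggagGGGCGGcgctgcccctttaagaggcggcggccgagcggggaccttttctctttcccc
Itga5: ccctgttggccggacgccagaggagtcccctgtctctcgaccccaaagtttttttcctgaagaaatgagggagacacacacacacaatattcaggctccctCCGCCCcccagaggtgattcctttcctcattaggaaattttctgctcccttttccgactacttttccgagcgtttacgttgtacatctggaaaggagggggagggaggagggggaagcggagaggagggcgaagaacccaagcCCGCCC
Itgb1: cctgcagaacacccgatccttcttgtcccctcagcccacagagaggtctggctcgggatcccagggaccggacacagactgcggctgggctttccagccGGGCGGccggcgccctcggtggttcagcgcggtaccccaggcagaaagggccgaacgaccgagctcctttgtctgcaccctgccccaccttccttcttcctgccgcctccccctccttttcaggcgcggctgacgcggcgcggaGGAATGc
The Itga11 stretch held neither motif, those of Itga3 and Itga5 held 2 copies of GGGCGG each, and that of Itgb1 held 1 copy of each motif. RefSeq promoters were matched for 27 of the 35 genes, 36 promoters in all. In the 250 bases before the start, GGGCGG was present in 20 of these 36, against 32.7% of all 32851 RefSeq promoters, whose median GC content was 52.4% against 64.2% for the 36. GGAATG was present in 2 of the 36, those of Itga10 and Itgb1, against 12.6% of all promoters. The AP-1 letters TGANTCA, N being any base, were present in 1, of Ddr1, against 6.75%, and the SRF CArG box in 1, of Fermt2, against 1.47%. These are matches of letters on both strands within 250 bases and say nothing about binding.

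Library totals ran from 17669006 to 21350111 counts, so the limit of 3 counts stood at 0.139 to 0.174 CPM, a unit that puts libraries of different totals on the same scale. The 35 genes lay well above it, with a median mean level of 103 CPM (range 4.33 to 965) against 18.3 CPM over all 16093 tested genes. All 9 fibroblast markers were present in every library, and their sum was 20975 and 19588 CPM on glass, 29457 and 28325 CPM on 1 kPa and 32138 and 30879 CPM on 20 kPa. Of these markers 8 rose and 1 fell on 1 kPa, and 7 rose and 1 fell on 20 kPa. They did not move as one: Dcn, decorin, went from 144 and 171 CPM on glass to 3766 and 3318 CPM on 1 kPa and 2960.1 and 2866 CPM on 20 kPa, while Vim, vimentin, went from 4294 and 4089.7 CPM to 2131 and 2250.4 CPM and to 2762 and 2681 CPM. Leukocyte markers outside the integrins summed to 11.5 to 15.4 CPM in the 6 libraries, with Ptprc, the defining one, at 0.0975 to 0.290 CPM. In bulk RNA, fewer cells of a type and less RNA per cell cannot be told apart.

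Adhesion genes were mostly lower on the gels. Against glass, 18 of the 35 were lower and 8 higher on 1 kPa at an adjusted p under 0.05, where 45.0% of all tested genes were called (22.0% lower and 23.0% higher). On 20 kPa 18 were lower and 7 higher, where 41.8% of all genes were called (19.6% lower and 22.3% higher). With a minimum of 2-fold, 5 were higher and 3 lower on 1 kPa (9.63% and 3.01% of all genes), and 4 were higher and 3 lower on 20 kPa (8.51% and 2.99%). The median log2 fold change of the 35 was -0.21 on 1 kPa and -0.25 on 20 kPa, against 0.00 and 0.02 over all tested genes. All 7 genes higher on 20 kPa were integrin subunits, as were the 8 higher on 1 kPa except Fyn and Bcar1. Among the integrin subunits alone, calls went both ways on each gel. On 1 kPa 2 collagen-binding, 1 RGD-binding and 2 beta subunits were higher, as was Itga9. Lower there were 2 laminin-binding, 1 RGD-binding and 2 beta subunits. On 20 kPa 4 collagen-binding and 2 beta subunits were higher, as was Itga9, while 3 laminin-binding and 1 beta subunit were lower. These counts are to be read against the shares of all tested genes given above. Well-measured genes are called more often: among the 9650 genes with a mean of at least 10 CPM, 53.8% were called on 1 kPa (30.2% lower and 23.6% higher), 49.7% on 20 kPa (26.8% lower and 22.9% higher) and 60.8% over the 3 substrates. Between the gels 4 of the 35 were higher on 20 kPa and 6 lower, where 18.9% of all genes were called (8.94% higher and 9.92% lower). None of those 10 differed by 2-fold, against 3.10% of all genes (1.35% higher and 1.75% lower). The libraries of the 2 groups compared did not overlap for 28 of the 35 genes on 1 kPa against glass, 30 on 20 kPa against glass and 27 between the gels, against 71.0%, 67.5% and 60.1% of all tested genes. Over the 3 substrates together 28 of 35 differed, against 51.2% of all tested genes. Itga7 and Itga8, each called on 1 gel against glass, were not among the 28 in that test over the 3 groups (adjusted p = 0.091 and 0.064). Both comparisons with glass use the same 2 glass libraries, so their values are given side by side and are not independent of each other.

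Grouped by direction, 15 genes were lower on both gels and 5 were higher on both. The 5 were Itga2, Itga10, Itga9, Itgb3 and Itgb8, each at under 20 CPM in both glass libraries. Called on 1 kPa only were Itga5, Itga8, Itgb1, Lims1 and Bcar1, and called on 20 kPa only were Itga1, Itga11, Itga7 and Src. Fyn was called in opposite directions on the gels. Itgav, Itga4, Itgb5, Ptk2 and Git1 were called in no comparison. No share over all tested genes was worked out for these counts by direction, so whether they are unusual was not tested.

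**Figure D1:**
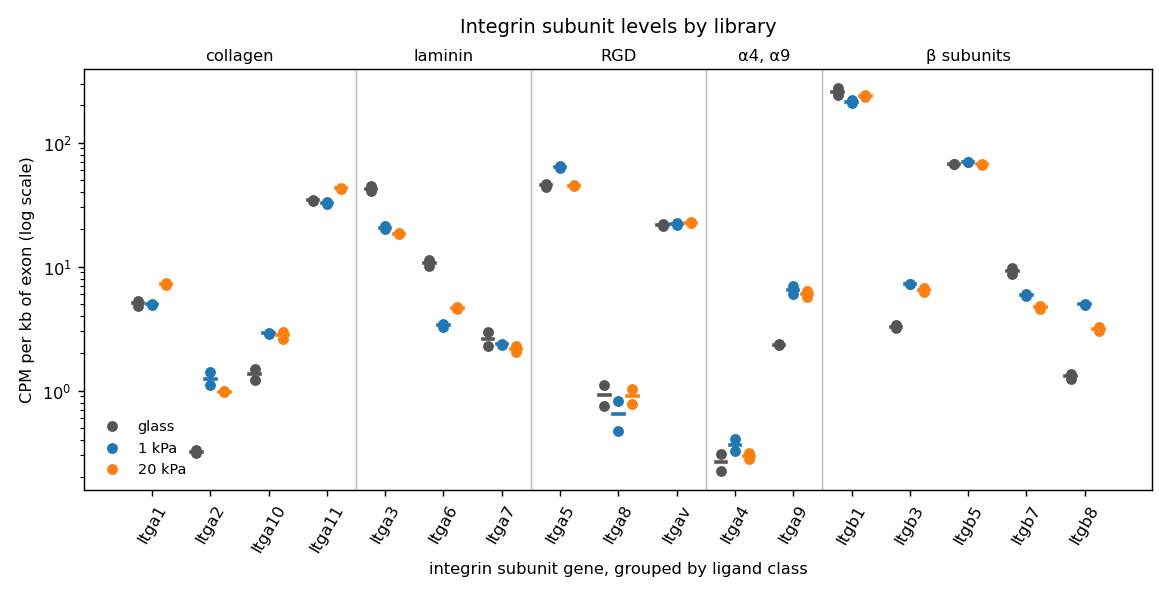
Level of each integrin subunit in CPM per kilobase of exon (log axis) in the 6 libraries, with points for single libraries coloured by substrate and a short line at the mean of the 2 libraries. Itga3 and Itga6 sit lower on both gels than on glass, Itga5 is highest on 1 kPa, and Itga11 and Itga1 are highest on 20 kPa.

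The collagen-binding alpha subunits were higher on 20 kPa: 4 of 4 rose against glass there (median log2 fold change 0.78), while 2 of 4 rose on 1 kPa (median 0.53) and none fell. Itga11, a receptor for fibrillar collagen in fibroblasts, is the most abundant of them. It had 176 and 174 CPM on glass, 169 and 165 CPM on 1 kPa, and 223 and 219 CPM on 20 kPa. Both 20 kPa libraries stood above the other 4, and the glass and 1 kPa libraries were close together. The log2 fold change was 0.33 ± 0.06 (SE, n = 2 per group, adjusted p = 1.3e-05) against glass and 0.40 ± 0.06 (adjusted p = 2.3e-06) against 1 kPa, while 1 kPa differed from glass by -0.07 ± 0.06 (adjusted p = 0.33).

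Itga1, whose product prefers basement membrane collagen, followed the same order. It had 89.2 and 98.7 CPM on glass, 91.4 and 92.8 CPM on 1 kPa, and 138 and 131 CPM on 20 kPa. The 1 kPa libraries lay between those on glass, and both 20 kPa libraries lay above them. Against glass the change on 20 kPa was 0.52 ± 0.06 on the log2 scale (adjusted p = 6.3e-08), against 1 kPa it was 0.54 ± 0.06 (adjusted p = 9.6e-08), and on 1 kPa it was -0.03 ± 0.06 (adjusted p = 0.76). Itga1 (chr13:114953096-115101964) and Itga11 (chr9:62677826-62783982, GRCm38) were the 2 genes of the 35 called higher on 20 kPa than on glass and also than on 1 kPa.

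The remaining collagen receptors were expressed at low levels and rose on both gels. Itga2, better known from platelets and epithelia, had 2.22 and 2.38 CPM on glass, 9.99 and 7.85 CPM on 1 kPa and 6.92 and 7.02 CPM on 20 kPa. It was thus 3.90-fold higher on 1 kPa (log2 1.96 ± 0.19, adjusted p = 7.3e-10) and 3.04-fold higher on 20 kPa (1.60 ± 0.20, adjusted p = 7.6e-08), and the gels did not differ past the threshold (-0.36 ± 0.16, adjusted p = 0.11). Itga10, a collagen II receptor of cartilage, had 7.67 and 6.32 CPM on glass, 15.2 and 14.9 CPM on 1 kPa and 15.4 and 13.5 CPM on 20 kPa. Its log2 fold changes were 1.09 ± 0.13 (adjusted p = 5.8e-08) and 1.03 ± 0.13 (adjusted p = 1.7e-07). Since 33.5% of its exonic bases overlap the annotated gene Gm42957, its level is uncertain.

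Cartilage markers, whose cells carry Itga10, also differed between the substrates. The summed level of 10 chondrocyte markers was 589.7 and 555 CPM on glass, 866 and 843 CPM on 1 kPa, and 1491 and 1435 CPM on 20 kPa. Of the 9 tested, 6 rose and 1 fell on 1 kPa, 8 rose and 1 fell on 20 kPa, and 8 were higher on 20 kPa than on 1 kPa. Acan, the aggrecan core protein, had 59.2 and 51.9 CPM on glass, 102 and 101 CPM on 1 kPa and 220.5 and 205 CPM on 20 kPa. Markers of endothelial cells, which also carry Itga1, summed to 61.6 and 58.5 CPM on glass, 64.1 and 59.9 CPM on 1 kPa and 89.7 and 85.3 CPM on 20 kPa. Of these 8 markers 5 rose and 1 fell on 1 kPa, and 7 rose and none fell on 20 kPa. The one that fell on 1 kPa, the transcription factor Erg, was the largest term of the sum, with 46.5 and 42.8 CPM on glass, 30.7 and 29.4 CPM on 1 kPa, and 61.8 and 57.1 CPM on 20 kPa. Pecam1, a defining endothelial marker, was at 1.99 and 2.84 CPM on glass, 8.09 and 7.96 CPM on 1 kPa, and 6.97 and 6.44 CPM on 20 kPa, higher on both gels (adjusted p = 1e-08 and 3.1e-07). The part of either in the collagen receptor values was not tested.

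The laminin-binding alpha subunits were lower on the gels: 2 of 3 fell on 1 kPa (median log2 fold change -1.05) and 3 of 3 on 20 kPa (median -1.20), and none rose. Itga3, which binds basement membrane laminins, had 256 and 231 CPM on glass, 115 and 121 CPM on 1 kPa, and 105 and 106 CPM on 20 kPa. All 4 gel libraries lay below both glass libraries. It was 2.07-fold lower on 1 kPa (log2 -1.05 ± 0.06, adjusted p = 5.8e-15) and 2.31-fold lower on 20 kPa (-1.21 ± 0.06, adjusted p = 2.5e-16), and the gels differed by -0.16 ± 0.06 (adjusted p = 0.069). Itga3 spans chr11:95044474-95076801 on the minus strand.

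Itga6, the other main laminin receptor of skin and a partner of Itgb1 or Itgb4, had 101 and 92.2 CPM on glass, 31.0 and 29.5 CPM on 1 kPa, and 43.0 and 41.3 CPM on 20 kPa. No library of one substrate overlapped another's, and 1 kPa was the lowest. Its log2 fold change was -1.68 ± 0.07 on 1 kPa (adjusted p = 1.1e-17) and -1.20 ± 0.07 on 20 kPa (adjusted p = 1.4e-14). It was higher on 20 kPa than on 1 kPa by 0.48 ± 0.08 (adjusted p = 3.5e-05). Itga6 lies at chr2:71745616-71858416 on the plus strand.

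Itga7, the laminin receptor of muscle, was scarce: 23.8 and 18.4 CPM on glass, 19.1 and 19.2 CPM on 1 kPa, and 16.5 and 18.4 CPM on 20 kPa. Its decrease on 20 kPa (-0.28 ± 0.11, adjusted p = 0.04) was lost in 7 of 14 alternatives, among them DESeq2 (adjusted p = 0.13) and the fits without the first glass library (0.67) or without either 20 kPa library (0.29 and 0.053). Skeletal muscle markers summed to 18.6 and 16.5 CPM on glass, 40.8 and 41.1 CPM on 1 kPa and 27.6 and 24.3 CPM on 20 kPa. Their part in the Itga7 values was not tested.

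Keratinocytes are a rich source of Itga3 and Itga6, so their markers were read beside them. Krt5, a basal keratin, had 2.40 and 2.96 CPM on glass, 0.0975 and 0.168 CPM on 1 kPa and 0.536 and 0.291 CPM on 20 kPa, and Krt14 had 2.73 and 3.54 CPM on glass, 0.487 and 0.841 CPM on 1 kPa and 0.341 and 0.242 CPM on 20 kPa. Without the integrins, 3 of the 5 tested keratinocyte markers fell and 1 rose on each gel, while the summed level of all 7 was 18.4 and 23.3 CPM on glass, 26.2 and 28.1 CPM on 1 kPa and 26.8 and 27.1 CPM on 20 kPa. Krt1, the keratin of differentiated epidermis, was at 0 in 5 of 6 libraries. The part of these cells in the Itga3 and Itga6 values was not tested.

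Among the RGD-binding alpha subunits, no member was called on 20 kPa against glass, and on 1 kPa 1 of 3 rose and 1 fell (median log2 fold change 0.04). Itga5, the alpha chain of the classical fibronectin receptor, carried the rise. It had 229 and 217 CPM on glass, 309 and 317 CPM on 1 kPa, and 225 and 219.6 CPM on 20 kPa. The 1 kPa libraries stood above all others, and the 20 kPa libraries lay within the range of glass. Its log2 fold change was 0.49 ± 0.06 on 1 kPa (adjusted p = 2.1e-08), -0.00 ± 0.06 on 20 kPa (adjusted p = 0.96) and -0.49 ± 0.06 from 1 kPa to 20 kPa (adjusted p = 7.4e-08). Itga5 lies on the minus strand at chr15:103344286-103366763.

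Itgav, which with several beta subunits binds vitronectin and the latent form of TGF-beta, had 227 and 237 CPM on glass, 243 and 233 CPM on 1 kPa, and 244 and 243 CPM on 20 kPa. These differences stayed within 0.07 on the log2 scale, with an SE of 0.06, and none passed the threshold. Itga8, a receptor for nephronectin in mesenchyme, had 8.09 and 5.57 CPM on glass, 3.46 and 6.11 CPM on 1 kPa, and 7.51 and 5.76 CPM on 20 kPa. Its libraries overlapped in all 3 comparisons, and the call on 1 kPa (-0.55 ± 0.22, adjusted p = 0.039) was lost in 7 of 14 alternative analyses, with adjusted p values from 0.0017 to 0.58.

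Itga9 and Itga4, which form a class of their own and bind tenascin, osteopontin and VCAM1, were low on glass. Itga9 had 17.8 and 18.3 CPM on glass, 53.7 and 46.1 CPM on 1 kPa, and 49.1 and 43.7 CPM on 20 kPa. Every gel library lay above both on glass, and the gels overlapped. The rise was 2.76-fold on 1 kPa (log2 1.47 ± 0.09, adjusted p = 4.7e-14) and 2.57-fold on 20 kPa (1.36 ± 0.09, adjusted p = 3.3e-13). Itga4, chiefly a leukocyte integrin, stayed at 3.14 to 5.66 CPM in the 6 libraries and was not called. Its change on 1 kPa, 0.47 ± 0.21 (adjusted p = 0.066), passed the threshold when the second glass library (adjusted p = 0.021) or the first 1 kPa library (adjusted p = 0.049) was left out.

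Levels of different subunits can be compared only per length of transcript, here as CPM per kilobase of exon. On that scale Itga5 and Itga3 were level on glass, with 46.4 and 43.9 for Itga5 and 44.8 and 40.5 for Itga3, followed by Itga11 with 34.3 and 34.0 and Itgav with 21.1 and 22.0. On 1 kPa Itga5 led with 62.6 and 64.2, Itga11 came next with 32.9 and 32.1, and Itgav (22.6 and 21.6) and Itga3 (20.2 and 21.1) could not be separated by more than about their spread. On 20 kPa Itga5 (45.6 and 44.5) and Itga11 (43.4 and 42.6) stood close together, with Itgav at 22.7 and 22.6 and Itga3 at 18.4 and 18.5. Itga6 went from 11.2 and 10.2 on glass to 3.44 and 3.27 on 1 kPa and 4.76 and 4.58 on 20 kPa, below Itga1 (4.91 and 4.99 on 1 kPa, 7.40 and 7.04 on 20 kPa) and Itga9 (6.98 and 5.99, 6.38 and 5.68). Itga2, Itga8 and Itga4 were at or below 1.40 in every library. This order depends on the length used. The exon union and the longest transcript are 9025 and 4310 bases for Itga6, but 7691 and 7020 for Itga9. They are 10744 and 7054 bases for Itgav, 5131 and 4969 for Itga11, and 5710 and 4861 for Itga3. The places of Itga6 beside Itga9, and of Itgav beside Itga11 and Itga3, are therefore uncertain.

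Summed by ligand class, these length-scaled levels describe the alpha subunit make-up, for which no test was made. Laminin-binding subunits made up 34.5% and 32.5% of the total of the 12 alpha subunits in the glass libraries, 16.1% and 16.6% in those of 1 kPa, and 16.2% and 16.6% in those of 20 kPa. RGD-binding subunits made up 40.1% and 40.9% on glass, 53.2% and 53.9% on 1 kPa, and 44.5% in both 20 kPa libraries. Collagen-binding subunits made up 23.9% and 25.0% in the glass libraries, 26.1% and 25.5% in those of 1 kPa, and 35.1% and 34.9% in those of 20 kPa. The Itga4 and Itga9 class stayed small, at 1.49% and 1.65% on glass and 3.93% to 4.54% on the gels. The total itself moved little, at 171 and 163 CPM per kilobase on glass, 161 in both 1 kPa libraries, and 156 and 153 on 20 kPa. The glass and gel libraries did not overlap in the laminin share, the 1 kPa libraries stood above the rest in the RGD share, and the 20 kPa libraries above the rest in the collagen share.

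**Figure D2:**
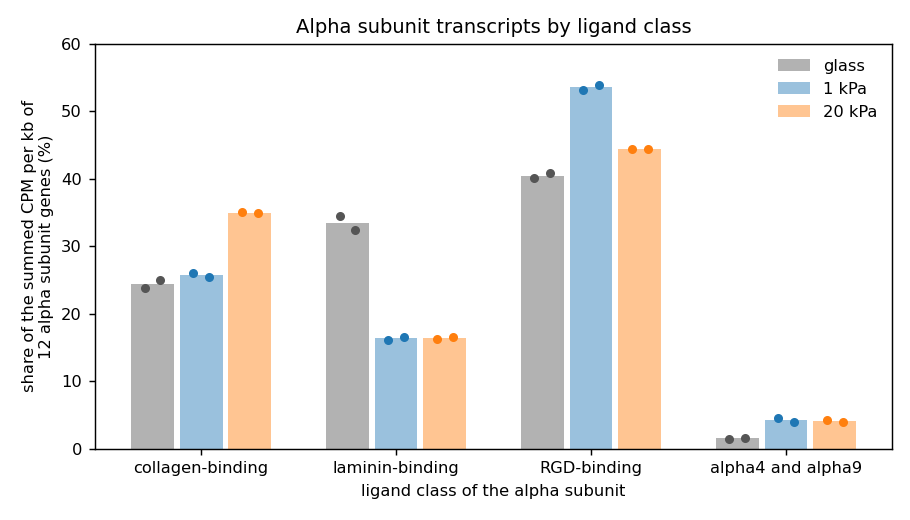
Share of each ligand class in the summed CPM per kilobase of the 12 alpha subunits, in percent, with 1 point per library and a bar from 0 to the mean of the 2 libraries of each substrate. The laminin-binding share falls from 33.5% on glass to 16.4% on both gels, the RGD-binding share is highest on 1 kPa (53.5%) and the collagen-binding share on 20 kPa (35.0%).

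Of the 5 beta subunits, 2 rose and 2 fell on 1 kPa, and 2 rose and 1 fell on 20 kPa. Itgb1, the partner of most alpha subunits listed above, was by far the most abundant: 987 and 1119 CPM on glass, 893 and 847 CPM on 1 kPa, and 989 and 953 CPM on 20 kPa. It was lower on 1 kPa by a log2 fold change of -0.27 ± 0.06 (adjusted p = 0.00055), and its 20 kPa libraries overlapped glass (-0.12 ± 0.06, adjusted p = 0.14). Per kilobase it made up 70.4% to 77.3% of the 5 beta subunits in the 6 libraries. Without the first glass library its decrease on 20 kPa passed the threshold (-0.20, adjusted p = 0.0017). Itgb1 lies at chr8:128685654-128733200.

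Itgb8, whose pairing with Itgav binds latent TGF-beta, changed most among the beta subunits. It had 13.8 and 15.1 CPM on glass, 54.9 and 54.5 CPM on 1 kPa, and 36.2 and 33.1 CPM on 20 kPa. The 3 substrates did not overlap, and 1 kPa was the highest. It was 3.80-fold higher on 1 kPa (log2 1.92 ± 0.09, adjusted p = 2.7e-17), 2.40-fold higher on 20 kPa (1.27 ± 0.09, adjusted p = 1.4e-12) and lower on 20 kPa than on 1 kPa by -0.66 ± 0.08 (adjusted p = 2.1e-07). Itgb8 lies at chr12:119158022-119238802 on the minus strand.

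Itgb3, which with Itgav forms the vitronectin receptor, had 19.8 and 18.7 CPM on glass, 42.8 and 42.7 CPM on 1 kPa, and 39.5 and 36.8 CPM on 20 kPa. It was 2.22-fold higher on 1 kPa (log2 1.15 ± 0.09, adjusted p = 2.5e-12) and 1.98-fold higher on 20 kPa (0.98 ± 0.09, adjusted p = 9.6e-11). Itgb5, another vitronectin receptor chain that also pairs with Itgav, lay between 237 and 249 CPM in all 6 libraries, with no call. Its log2 fold change was 0.05 ± 0.06 on 1 kPa and -0.01 ± 0.06 on 20 kPa.

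Itgb7, a lymphocyte chain that pairs with Itga4 or Itgae, had 26.9 and 24.1 CPM on glass, 16.8 and 16.0 CPM on 1 kPa, and 12.6 and 13.4 CPM on 20 kPa. The substrates did not overlap. Its log2 fold change was -0.64 ± 0.10 on 1 kPa (adjusted p = 5e-06) and -0.97 ± 0.10 on 20 kPa (adjusted p = 5e-09). The difference between the gels, -0.33 ± 0.11 (adjusted p = 0.031), was lost in 7 of 14 alternatives. Of the 5 leukocyte markers tested outside the integrins, Lyz2 rose on each gel, and Csf1r fell on 20 kPa (-0.89 ± 0.25, adjusted p = 0.005). The part of leukocytes in the Itgb7 values was not tested.

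**Figure D3:**
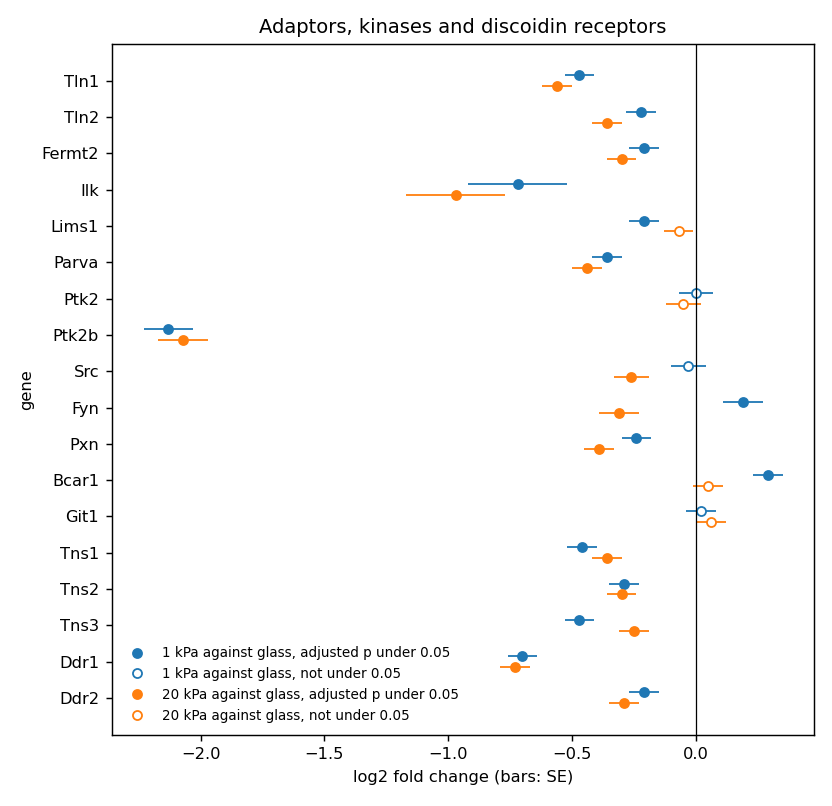
Log2 fold change against glass of the 18 genes that are not integrin subunits, on 1 kPa and on 20 kPa, with bars of 1 SE; filled points have an adjusted p under 0.05 and open points do not. Talins, kindlin, tensins and discoidin domain receptors sit below 0 on both gels, and Ptk2b sits lowest at -2.13 and -2.07.

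The talins and kindlin, which switch integrins on and couple them to actin, fell on both gels, 3 of 3 on each (median log2 fold change -0.22 and -0.36). Tln1, the talin of most cells, had 954 and 872 CPM on glass, 639 and 678 CPM on 1 kPa, and 630.0 and 612 CPM on 20 kPa. All 4 gel libraries lay below both on glass, with log2 fold changes of -0.47 ± 0.06 (adjusted p = 1e-07) and -0.56 ± 0.06 (adjusted p = 5.3e-09). Tln2, its paralogue of muscle and brain, went from 198 ± 4.8 CPM on glass (mean ± SD, n = 2) to 173 and 169 CPM on 1 kPa and 161 and 149 CPM on 20 kPa (-0.22 ± 0.06 and -0.36 ± 0.06). Fermt2, kindlin-2, went from 186 and 197 CPM to 163 and 168 CPM on 1 kPa and 154 and 156 CPM on 20 kPa (-0.21 ± 0.06 and -0.30 ± 0.06). On 1 kPa the calls of Tln2 (adjusted p = 0.003) and Fermt2 (adjusted p = 0.0033) each failed without 1 of the 1 kPa libraries: 0.068 without the second for Tln2 and 0.079 without the first for Fermt2.

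Of the ILK-PINCH-parvin complex, 3 of 3 genes fell on 1 kPa and 2 on 20 kPa. Parva, alpha-parvin, which binds actin, had 369 and 349.8 CPM on glass, 277 and 283 CPM on 1 kPa and 272 and 257 CPM on 20 kPa. It fell by 0.36 on the log2 scale on 1 kPa (SE 0.06, adjusted p = 4.9e-06) and by 0.44 on 20 kPa (SE 0.06, adjusted p = 1.7e-07). Lims1, PINCH-1, had 138 and 145 CPM on glass, 121 and 124 CPM on 1 kPa, and 136 and 135 CPM on 20 kPa. It was called on 1 kPa (-0.21 ± 0.06, adjusted p = 0.0037, but 0.072 without the first 1 kPa library) and was -0.07 ± 0.06 on 20 kPa. Ilk, the pseudokinase at the centre of the complex, had 5.87 and 8.58 CPM on glass, 4.63 and 4.04 CPM on 1 kPa, and 3.31 and 3.97 CPM on 20 kPa (-0.72 ± 0.20, adjusted p = 0.0035, and -0.97 ± 0.20, adjusted p = 2e-04). Its level is uncertain, since 89.7% of its exonic bases overlap Taf10 or Rrp8, and without the second glass library the call on 1 kPa was lost (adjusted p = 0.11).

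Among the kinases the close relatives FAK and PYK2 parted. Ptk2, which encodes FAK, had 65.3 and 65.4 CPM on glass, 63.7 and 67.4 CPM on 1 kPa, and 66.6 and 59.5 CPM on 20 kPa. Its libraries overlapped in all comparisons, and its log2 fold changes were 0.00 ± 0.07 and -0.05 ± 0.07. Ptk2b, which encodes the calcium-responsive PYK2, had 52.5 and 47.5 CPM on glass, 11.3 and 11.6 CPM on 1 kPa, and 11.5 and 12.4 CPM on 20 kPa. It was 4.37-fold lower on 1 kPa (-2.13 ± 0.10, adjusted p = 1.8e-17) and 4.19-fold lower on 20 kPa (-2.07 ± 0.10, adjusted p = 3e-17), the largest decrease among the 35 genes on either gel. The gels themselves differed by 0.06 ± 0.11 (adjusted p = 0.77). Ptk2b lies at chr14:66153257-66281052 on the minus strand.

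Src and Fyn, the SRC family kinases among the 35 genes, were lower on 20 kPa. Src had 83.0 and 78.1 CPM on glass, 76.8 and 80.7 CPM on 1 kPa, and 68.6 and 66.1 CPM on 20 kPa. Glass and 1 kPa overlapped, and 20 kPa was lower than glass (-0.26 ± 0.07, adjusted p = 0.0019) and than 1 kPa (-0.23 ± 0.07, adjusted p = 0.014, lost in 5 of 14 alternatives). Fyn had 45.0 and 43.4 CPM on glass, 53.1 and 47.7 CPM on 1 kPa, and 35.4 and 36.0 CPM on 20 kPa. Its 20 kPa libraries were the lowest, by -0.31 ± 0.08 against glass (adjusted p = 0.002) and -0.50 ± 0.08 against 1 kPa (adjusted p = 1.6e-05). The rise on 1 kPa (0.19 ± 0.08, adjusted p = 0.045) was lost in 9 of 14 alternatives, among them the fit with a replicate block (adjusted p = 0.056) and that without the first 1 kPa library (adjusted p = 0.46).

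The adaptors that these kinases phosphorylate did not move as a group: of 3, 1 rose and 1 fell on 1 kPa, and 1 fell on 20 kPa. Pxn, paxillin, had 109.9 and 103 CPM on glass, 91.5 and 88.9 CPM on 1 kPa, and 80.4 and 81.7 CPM on 20 kPa. It fell by 0.24 on the log2 scale on 1 kPa (SE 0.06, adjusted p = 0.0022, but 0.058 without the second 1 kPa library) and by 0.39 on 20 kPa (SE 0.06, adjusted p = 5.4e-06). Bcar1, the stretch-sensitive adaptor also called Cas, had 84.1 and 80.8 CPM on glass, 97.5 and 105 CPM on 1 kPa, and 86.4 and 84.8 CPM on 20 kPa. It was higher on 1 kPa than on glass (0.29 ± 0.06, adjusted p = 0.00034) and lower on 20 kPa than on 1 kPa (-0.24 ± 0.06, adjusted p = 0.0064). The latter was lost without the second 1 kPa library (adjusted p = 0.21) and without either 20 kPa library (0.056 and 0.086). Git1, a paxillin-binding regulator of small GTPases, lay between 97.7 and 105 CPM in the 6 libraries, with no call.

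The tensins, which link integrin tails to actin in mature adhesions, fell on both gels, 3 of 3 on each (median log2 fold change -0.46 and -0.30). Tns3 had 426 and 411 CPM on glass, 304 and 303 CPM on 1 kPa, and 362 and 340.5 CPM on 20 kPa. It was lowest on 1 kPa (-0.47 ± 0.06, adjusted p = 5.1e-08) and intermediate on 20 kPa (-0.25 ± 0.06, adjusted p = 0.00045). The difference between the gels, 0.21 ± 0.06 (adjusted p = 0.0075), was lost without either 1 kPa library (0.094 and 0.13) and without the first 20 kPa library (0.16). Tns1 had 229 and 217 CPM on glass, 160.1 and 165 CPM on 1 kPa, and 176 and 171 CPM on 20 kPa (-0.46 ± 0.06 and -0.36 ± 0.06). Tns2 had 162 and 155 CPM on glass, 126 and 133 CPM on 1 kPa, and 125 and 131 CPM on 20 kPa (-0.29 ± 0.06 and -0.30 ± 0.06).

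The discoidin domain receptors are tyrosine kinases that bind collagen without integrins, and both fell on both gels, while no collagen-binding alpha subunit did. Ddr1, the epithelial form, had 239.7 and 215 CPM on glass, 139 and 141 CPM on 1 kPa, and 133 and 141 CPM on 20 kPa. All gel libraries lay below glass (-0.70 ± 0.06, adjusted p = 6.2e-11, and -0.73 ± 0.06, adjusted p = 2.8e-11). Ddr2, the fibroblast form, changed less, from 382 and 373 CPM on glass to 325 and 326 CPM on 1 kPa and 316 and 302 CPM on 20 kPa (-0.21 ± 0.06, adjusted p = 0.0022, and -0.29 ± 0.06, adjusted p = 8.8e-05). Neither differed past the threshold between the gels (-0.03 ± 0.06 and -0.08 ± 0.06).

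**Figure D4:**
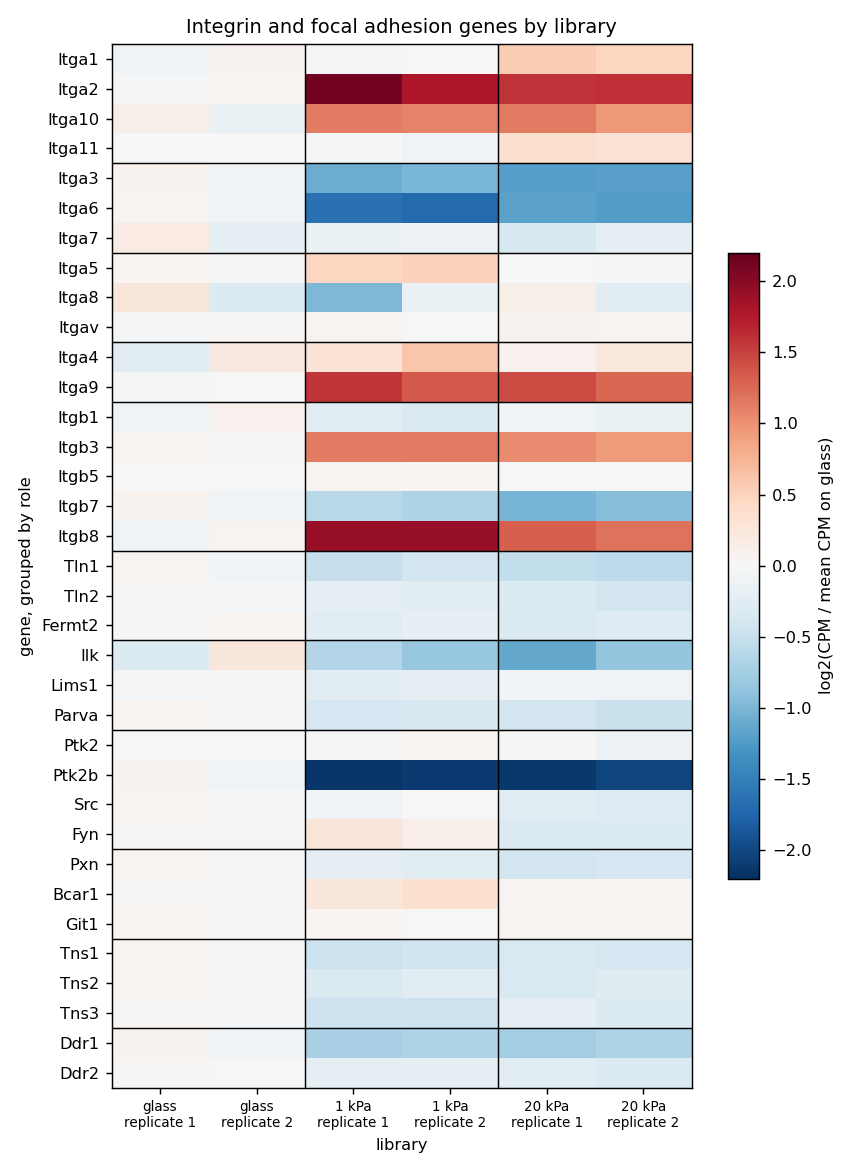
Level of the 35 genes in each of the 6 libraries, as the log2 ratio of its CPM to the gene's mean on glass, grouped by role; red is above that mean and blue below. The 2 libraries of a substrate look alike for most genes, and the abundant adaptors are paler than Ptk2b, Itga2, Itga6 and Itgb8.

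Between the gels, 4 genes were higher on 20 kPa than on 1 kPa (Itga1, Itga11, Itga6 and Tns3) and 6 were lower (Itga5, Itgb7, Itgb8, Src, Fyn and Bcar1). Of these, Itga1, Itga11, Itga6, Itga5, Itgb8 and Fyn kept the call in all 14 alternatives. By substrate, 4 genes were higher on 1 kPa than on both others (Itga5, Itgb8, Fyn and Bcar1), and 2 were lower there than on both others (Itga6 and Tns3). On 20 kPa, 3 were lower than on both others (Itgb7, Src and Fyn). No share over all tested genes was worked out for these counts by substrate either. The share called between the gels, 10 of 35, compares with 23.7% among genes with a mean of at least 10 CPM.

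Genes of the same machinery outside the 35 were read for comparison. Of 48 other focal adhesion proteins 46 were tested: 27 fell and 4 rose on 1 kPa (median log2 fold change -0.24), 25 fell and 3 rose on 20 kPa (median -0.21), and between the gels 9 were higher and 6 lower on 20 kPa. Among all genes with a mean of at least 10 CPM, 30.2% fell and 23.6% rose on 1 kPa. On 20 kPa 26.8% of those genes fell and 22.9% rose, and between the gels 11.2% were higher and 12.5% lower on 20 kPa. Zyx, zyxin, which gathers at stressed actin, had 709 and 667 CPM on glass, 361 and 366 CPM on 1 kPa, and 279 and 287 CPM on 20 kPa (-0.92 ± 0.06, adjusted p = 2.4e-14, and -1.28 ± 0.06, adjusted p = 1.4e-17). Vcl, vinculin, which reinforces talin, had 275 and 256 CPM on glass, 115 and 117 CPM on 1 kPa, and 147 and 129 CPM on 20 kPa (-1.19 ± 0.06, adjusted p = 8.3e-16, and -0.95 ± 0.06, adjusted p = 1.6e-13). In each, the 4 gel libraries lay below both glass libraries. Of 9 other integrin subunits 5 were tested: 1 rose and 1 fell on 1 kPa, and 1 rose and none fell on 20 kPa. Itgb4, the hemidesmosome partner of Itga6, had 9.99 and 7.31 CPM on glass, 6.77 and 6.33 CPM on 1 kPa and 7.07 and 7.12 CPM on 20 kPa (-0.41 ± 0.16, adjusted p = 0.037, and -0.30 ± 0.16, adjusted p = 0.13).

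The ligands of the 3 receptor classes were read in the same libraries. Their counts are to be read against the shares just given for genes with a mean of at least 10 CPM. Of 10 collagen chains 9 rose and none fell on 1 kPa, and 8 rose and 1 fell on 20 kPa. Col3a1, a fibrillar collagen of skin, had 3118 and 2874 CPM on glass, 6547 and 6276 CPM on 1 kPa, and 8625 and 8057 CPM on 20 kPa (1.10 ± 0.07, adjusted p = 3.9e-14, and 1.48 ± 0.07, adjusted p = 4.9e-17). Of 10 laminin chains tested, 6 fell and 3 rose on 1 kPa and 7 fell and 1 rose on 20 kPa. Lamc1, the gamma chain of most laminins, had 276 and 258 CPM on glass, 217 and 209 CPM on 1 kPa, and 195 and 181 CPM on 20 kPa (-0.33 ± 0.06 and -0.51 ± 0.06), while Lamb1 had 235 and 215 CPM on glass, 344 and 333 CPM on 1 kPa, and 331 and 319.9 CPM on 20 kPa (0.59 ± 0.06 and 0.53 ± 0.06).

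Of 9 genes tested for RGD-containing and related ligands, 5 rose and 2 fell on 1 kPa, and 7 rose and 2 fell on 20 kPa. Tnc, tenascin-C, a ligand of Itga9, had 1513 and 1609 CPM on glass, 4581 and 4342 CPM on 1 kPa, and 3726 and 3550.2 CPM on 20 kPa (1.52 ± 0.07, adjusted p = 5.3e-18, and 1.22 ± 0.07, adjusted p = 9.9e-16). Spp1, osteopontin, had 3972 and 4177 CPM on glass, 9020.0 and 8469 CPM on 1 kPa, and 10626 and 10526 CPM on 20 kPa (1.10 ± 0.07 and 1.38 ± 0.07). Tgfb1, whose latent form Itgb8 and Itgav bind, had 36.6 and 30.5 CPM on glass, 95.0 and 91.7 CPM on 1 kPa, and 79.0 and 71.1 CPM on 20 kPa (1.47 ± 0.08 and 1.16 ± 0.08). On both gels Itga9 and Itgb8 thus rose beside Tnc, Spp1 and Tgfb1, but not beside every ligand of the list. Tgfb3, named here after its values were seen, fell on 1 kPa (-0.24 ± 0.06, adjusted p = 0.0012), where Itgb8 was highest. Tgfb3 rose on 20 kPa (0.38 ± 0.06) and was higher there than on 1 kPa (0.62 ± 0.06), while Itgb8 was lower there than on 1 kPa. These values describe this set and are not a test of a link.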

How the data were processed

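The authors deposited raw counts per gene, as whole numbers and without scaling. Per the submitters' processing notes, reads were handled with cutadapt, Trim Galore, featureCounts and STAR 2.7.10b on mm10. Settings, annotation and strand use were not given in the sources used here. Overlapping genes are therefore uncertain. Of 57010 identifiers, 91.4% matched GENCODE M21 (GRCm38), the source of symbols, positions and exon lengths; 99.9% of those carried a later version. Library totals ran from 17669006 to 21350111, and floors cover counting error only.

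Genes kept by filterByExpr (16093) were scaled with TMM and fitted with the quasi-likelihood test of edgeR 4.0.16 (R 4.3.3) on all 6 libraries, group as the only term, 3 residual degrees of freedom, common biological coefficient of variation 4.98%. Every adjusted p is two-sided from this test, Benjamini-Hochberg over all tested genes, threshold 0.05; SE is the absolute log2 fold change over the square root of F. CPM uses TMM-scaled sizes, and CPM per kilobase divides by the union of exons. The procedure was also run on simulated counts in which a small set of genes rose on 1 kPa alone, with a constant spread. In these data many genes moved both ways on both gels, so that run cannot vouch for the calls given here. Alternatives used limma 3.58.1 and DESeq2 1.42.0, other scalings and filters, a replicate block and leaving out each library.

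The 35 genes, the lists and the naming rule were chosen with earlier results of these data known. By that rule every one of the 35 may be named, and of each other list up to 4 genes with the smallest p over the 3 groups and any gene below the filter. Lists of other integrins, focal adhesion proteins, ligands and cell type markers are given by their counts.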

Additional observations from a re-analysis of the deposited data

How the results depend on the processing

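Of 105 results (35 genes in 3 comparisons) 61 were called, and 49 of these held in every one of 14 alternatives that gave a value. The losses lay in Itga8, Tln2, Fermt2, Ilk, Lims1, Fyn and Pxn on 1 kPa, Itga7 on 20 kPa, and Itgb7, Src, Bcar1 and Tns3 between the gels. Calls gained lay mostly between the gels: Itgb1 in 6 alternatives, Itga3, Lims1 and Pxn in 4 each, and Tln2 and Itga8 in 3 each. Against glass, Itga4 gained 2 and Itga7 gained 1 on 1 kPa, and Itgb1 gained 1 on 20 kPa. A minimum mean of 5 CPM left 34 of the 35 genes. Between the gels, 3035 genes in all were called, 2022 with DESeq2 and 1680 to 3824 when 1 library was left out; 6 of the 35 were lower, or 3 to 9 without 1 library; and 4 were higher, or 7 with scaling to total counts. That scaling gave 1945 higher and 1253 lower genes between the gels (60.8% higher) against 1438 and 1597 (47.4%), and moved the median of all genes by at most 0.05. Against glass, 3 of the 35 were at least 2-fold lower on 20 kPa, or 3 to 5 without 1 library. With the replicate number as a block, 7032, 6526 and 2862 genes were called in the 3 comparisons and 8014 over the 3 groups, and 7 of the 35 were higher on 1 kPa in place of 8, Fyn being lost; no other call among the 35 changed. Deviations of same-numbered libraries correlated at -0.03, -0.02 and -0.03 over all tested genes. Counting error in scarce genes weakens such a correlation, so these values cannot exclude that same-numbered libraries share a source. With the longest transcript as length, collagen-binding shares were 21.6%, 23.7% and 32.0% on glass, 1 kPa and 20 kPa, laminin-binding shares 36.9%, 18.5% and 18.9%, the RGD-binding share on 20 kPa 45.4%, and the Itga4 and Itga9 share 1.40% on glass and 3.71% on 20 kPa. Signs turned among the 105 only in results that were uncalled both before and after the turn. When each library was left out in turn, the log2 fold change on 1 kPa against glass ran from -0.10 to 0.04 for Itga1, from -0.31 to 0.06 for Itga7, from -0.04 to 0.04 for Ptk2, from -0.08 to 0.01 for Src and from -0.02 to 0.07 for Git1. On 20 kPa against glass it ran from -0.04 to 0.04 for Itga5, from -0.29 to 0.25 for Itga8, from -0.05 to 0.40 for Itga4 and from -0.13 to 0.03 for Ptk2. Between the gels it ran from -0.15 to 0.03 for Itga10, from -0.21 to 0.01 for Itga9, from -0.14 to 0.03 for Ptk2, from -0.05 to 0.03 for Tns2 and from -0.07 to 0.01 for Ddr1. With total counts the turned values were -0.01 for Ptk2 on 1 kPa, 0.03 for Itga5 and 0.02 for Itgb5 on 20 kPa, and 0.03 for Tns2 and 0.01 for Ddr1 between the gels; Itga5 on 20 kPa was also 0.00 with upper quartile scaling, 0.00 without a filter and 0.01 with the 5 CPM minimum. The cause of these changes was not tested. With 2 libraries per group, leaving out 1 assumes that the lone library varies like those of the other groups.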

Other observations

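Among ligands of RGD-binding integrins the largest fold belonged to Edil3, a secreted RGD protein that binds integrins containing Itgav. It had 4.35 and 4.41 CPM on glass, 42.1 and 43.5 CPM on 1 kPa, and 66.3 and 56.5 CPM on 20 kPa, with log2 fold changes of 3.29 ± 0.12 (edgeR adjusted p = 3.8e-20) and 3.81 ± 0.11 (adjusted p = 5.1e-22). Fn1, fibronectin, named here after its values were seen, was at 18103 and 16727 CPM on glass, 22079 and 22100.1 CPM on 1 kPa, and 23137 and 21619 CPM on 20 kPa (0.34 ± 0.07 and 0.36 ± 0.07). Lamc3, a laminin gamma chain, was higher on 1 kPa (24.0 and 23.3 CPM) and lower on 20 kPa (13.5 and 12.3 CPM) than on glass (17.2 and 16.6 CPM), and the gels differed by -0.88 ± 0.10 (adjusted p = 1.3e-07). Csrp1, a zyxin-binding LIM protein, had 624 and 606 CPM on glass, 295 and 310.2 CPM on 1 kPa, and 347 and 364 CPM on 20 kPa. Itgad, a leukocyte integrin subunit near the detection limit, went from 0.231 and 0.638 CPM on glass to 1.85 and 2.24 CPM on 1 kPa and 1.22 and 1.16 CPM on 20 kPa (adjusted p = 9.1e-05 and 0.012).

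Markers of other cell types not given beside a result were as follows. Pericyte and smooth muscle markers summed to 362 and 322 CPM on glass, 231 and 222 CPM on 1 kPa, and 268 and 255 CPM on 20 kPa. Of these 8 genes, 4 rose and 2 fell on 1 kPa, and 3 rose and 3 fell on 20 kPa. Their largest share was Cspg4, a surface proteoglycan, at 319 and 279.8 CPM on glass, 191 and 184 CPM on 1 kPa, and 237 and 225 CPM on 20 kPa. Schwann cell and melanocyte markers summed to 16.3 to 24.8 CPM in the 6 libraries, and of 6 tested 2 rose and 1 fell on 1 kPa, and 4 rose and 1 fell on 20 kPa. Of the skeletal muscle markers 6 were tested, and 4 rose on 1 kPa and 3 on 20 kPa, while Pax7, which defines muscle stem cells, was at 0 in all 6 libraries.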
